A study of Mus musculus with 9 samples.

Results

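The genes described here are those of the interferon response: the interferon receptors, the Stat and Irf transcription factors, and the families of interferon-induced effectors named Ifit, Ifitm, Ifi, Ifih, Isg, Oas, Gbp and Mx. They were chosen by gene symbol from the table of nascent transcription, which gave 84 of 24505 genes. Of these, 63 passed a filter on low values (at least 2 libraries at log2 of 10 or more) and were tested, and 21 did not. The 84 comprised 5 receptors, 7 Stat, 9 Irf, 11 Gbp, 6 Ifit, 7 Ifitm, 3 Isg, 12 Oas and 2 Mx genes, 10 genes of the Ifi202 to Ifi214 family and 9 other Ifi genes. The symbol rule also took in the 3 genes Irf2bp1, Irf2bp2 and Irf2bpl, whose products bind Irf2 or resemble such proteins and are not Irf factors. Isg20l2, Ifitm5 and Ifitm10 were likewise taken in by their names.

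The study compared organoids (mini-guts grown in culture) from mouse duodenum under 3 culture conditions. GRO-seq, which sequences RNA extended by engaged polymerases in isolated nuclei and so reads nascent transcription, was done on 2 libraries each of RANKL, labelled intestinal M cell, ENRI, labelled enterocyte, and WENRC, labelled intestinal stem cell. H3K27me3, the histone mark laid down by Polycomb repressive complex PRC2, was read by ChIP-seq, with 2 libraries from RANKL and 1 from WENRC. The labels do not spell out ENRI and WENRC, give no strain, age or treatment time, and number the mice (1 and 2) for the ENRI and WENRC GRO-seq libraries but not for RANKL. RANKL is the name of a cytokine of the TNF family that drives the formation of M cells, the antigen-sampling cells of the gut lining.

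Interferons signal through 3 receptor pairs. Type I interferons bind Ifnar1 with Ifnar2, interferon gamma binds Ifngr1 with Ifngr2, and the type III or lambda interferons bind Ifnlr1 with the shared chain Il10rb. Janus kinases on these receptors phosphorylate Stat factors, which bind interferon-stimulated response elements together with Irf9, or gamma-activated sites in pairs. In the gut, Ifnlr1 is known as the receptor through which epithelial cells, more than the cells beneath them, answer lambda interferon.

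The culture labels were checked against marker genes. All 7 M cell markers, among them Gp2 and Spib, were higher in RANKL than in ENRI and in WENRC, all 6 enterocyte markers were lower in WENRC than in ENRI, and all 5 stem cell markers were higher in WENRC than in ENRI. RANKL was mixed on these lists. By limma, 4 enterocyte markers were higher than in WENRC and 2, Fabp1 and Rbp2, lower than in ENRI. By the same test, 3 stem cell markers were higher than in ENRI while Lgr5 was lower than in WENRC (-3.02). The authors' test called 5 enterocyte markers lower than in ENRI, and 3 higher and 1 lower than in WENRC. Of the stem cell markers it called 3 higher than in ENRI, and 1 higher and 2 lower than in WENRC. Of 5 general epithelial markers, Vil1, Krt8 and Krt19 were lower than in ENRI in both RANKL (-0.97, -1.66 and -2.0) and WENRC (-1.01, -0.74 and -1.23), and Krt8 was lower in RANKL than in WENRC (-0.92); Epcam and Cdh1 passed in no comparison. Of 11 leukocyte markers, 9 were tested. None passed the limma test between RANKL and another culture, with 1 lower in RANKL at an unadjusted p under 0.05 in each comparison and 1 past the threshold in the authors' test against WENRC; Cd68 alone passed between WENRC and ENRI. Their summed level lay between 8.88 and 9.37 on the log2 scale in all 6 libraries, and Ptprc, which marks all leukocytes, read 3.07 to 4.68. The summed level of 7 stromal markers was 9.35 and 9.40 in RANKL and 7.16 to 7.99 elsewhere, with Pdgfrb at 9.21 and 9.26 in RANKL and 6.44 to 7.68 elsewhere and 5 of the 7 below the filter. The part of the epithelial and stromal markers in the results was not tested.

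The unit of every GRO-seq value given is log2, as normalized by the authors, over the whole gene. They resemble a regularized logarithm, which draws low values together, so that changes and folds of weakly transcribed genes are understated. The depth of the libraries is unknown. A change is the difference of 2 culture means with its limma standard error (SE), and a gene is said to be higher or lower where its adjusted p, taken over all 16563 genes tested, was under 0.05. The SD of the difference between the libraries of a culture, over genes, was 0.22 in RANKL, 0.699 in ENRI and 0.421 in WENRC. The RANKL libraries were combined from a repeat sequencing, so that sequencing run and culture cannot be told apart. Y-linked Ddx3y read 8.49 and 8.29 in the ENRI and WENRC libraries of mouse 1 and 3.28 to 3.60 in the other 4 libraries. Nothing says that the RANKL libraries came from separate animals, so p-values measure the spread between these libraries.

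Against ENRI, 8 of the 63 tested genes were higher in RANKL and 13 were lower, where 10.4% and 10.5% of all tested genes were. Against WENRC, 8 were higher in RANKL and 8 lower, beside 8.53% and 3.62% of all genes. Between WENRC and ENRI, 1 was higher in WENRC and 12 were lower, beside 4.85% and 9.74% of all genes. With the libraries recentred on their upper quartiles, the shares of all genes became 7.52% and 6.59% for RANKL against WENRC and 9.94% and 8.43% for WENRC against ENRI, while the counts in the group were 8 and 9, and 2 and 10; for RANKL against ENRI they were 9 and 13, beside 12.4% and 11.2%. The median change of the 63 genes was -0.17 from ENRI to RANKL, 0.05 from WENRC to RANKL and -0.09 from ENRI to WENRC, with -0.00, -0.01 and -0.01 over all genes. The families thus did not move as one body. In RANKL, 4 of 7 tested Gbp genes were higher than in either other culture, while Ifnlr1 and the 3 Ifi27 genes were lower, and 2 of 6 Ifit genes were lower than in ENRI. In WENRC all 5 receptor genes were below ENRI. The first and second comparison share the RANKL libraries, so their values are given side by side. The calls rest on few libraries. When either RANKL library was left out, Ifnlr1 was the single gene of the 63 past the limma threshold against ENRI (18 to 21 at an unadjusted p under 0.05), where 0.477% and 0.193% of all genes were higher and lower without RANKL 1 and 0.29% and 0.0966% without RANKL 2, and no gene of the whole table passed in the other comparisons. Without WENRC 1 or WENRC 2, 5 were higher and 7 lower in RANKL than in ENRI, beside 5.6% and 5.96%, and 5.6% and 6.05%, of all genes. Against WENRC, Ifnlr1 and Gbp4 passed without either one and Gbp9 without WENRC 2. Without ENRI 1 the counts rose to 13 higher and 20 lower against ENRI, beside 22.8% and 19.3%.

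**Figure D1:**
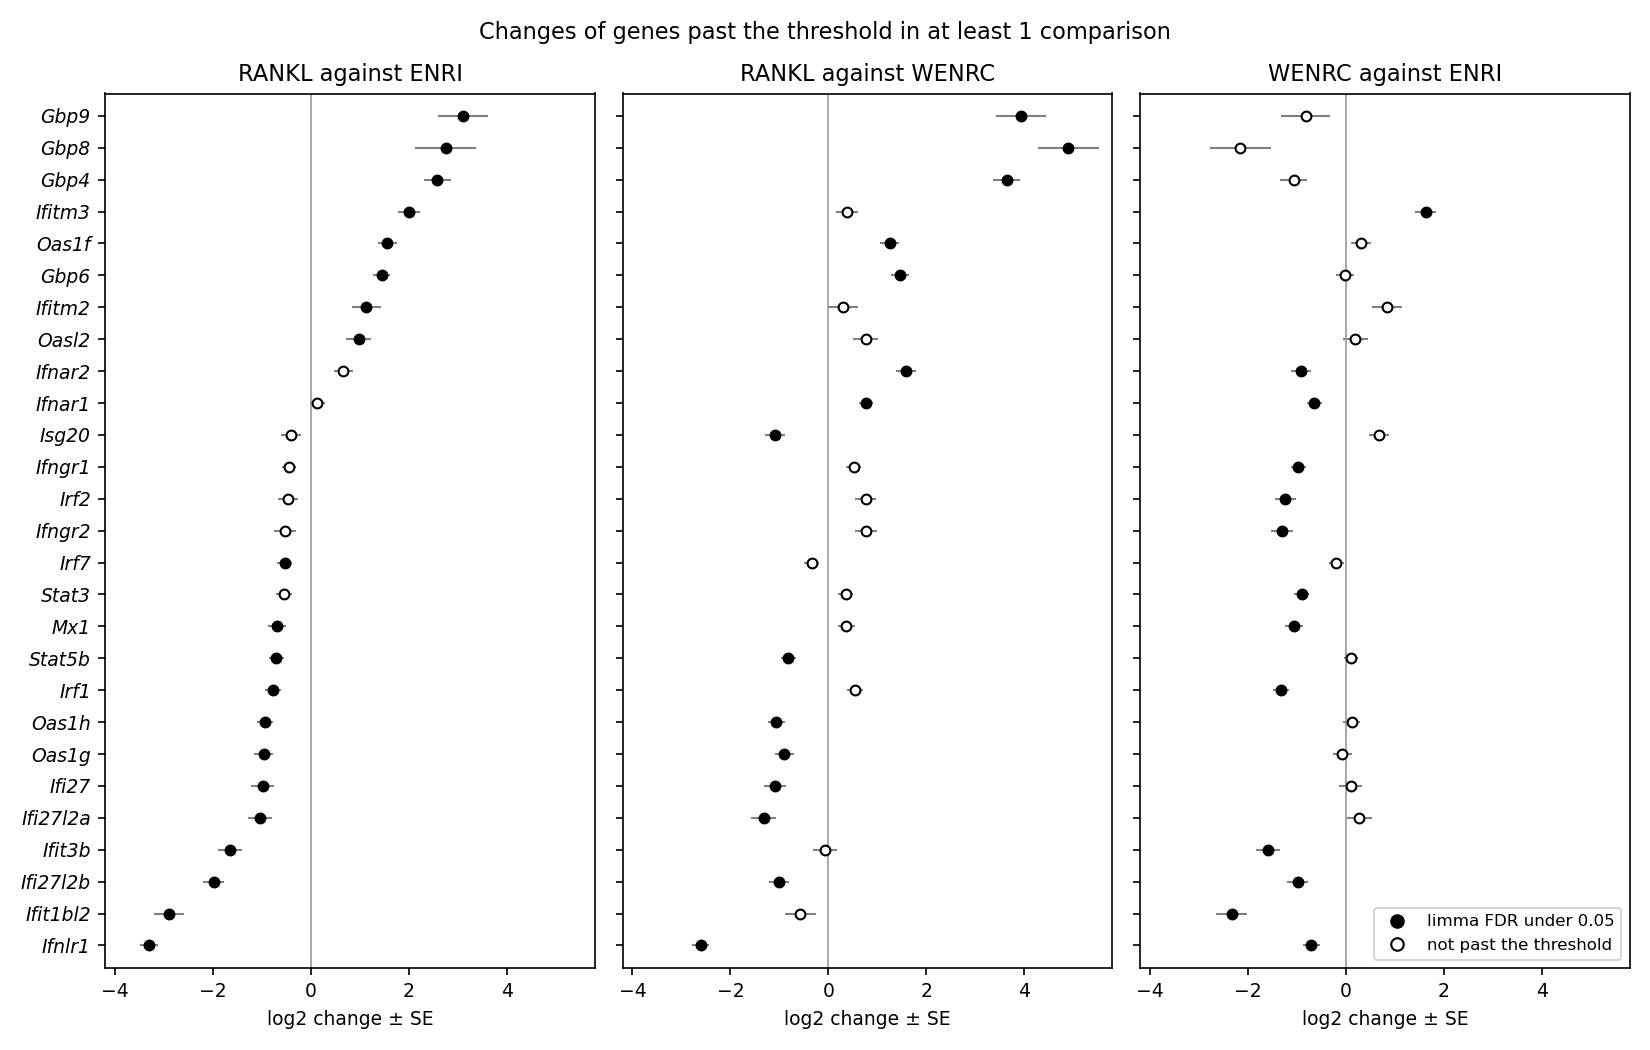
Log2 change with its limma SE for genes past the threshold in at least 1 of the 3 comparisons (columns), ordered by the change from ENRI to RANKL; filled points are past the adjusted p threshold of 0.05. Gbp8 and Gbp9 lie far to the right in both RANKL comparisons (2.75 and 3.11, then 4.90 and 3.93) and Ifnlr1 far to the left (-3.31 and -2.61).

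Of the 5 receptor genes, 1 was lower in RANKL than in ENRI, 2 were higher and 1 lower in RANKL than in WENRC, and 5 were lower in WENRC than in ENRI. Ifnlr1, the lambda interferon chain, stood apart from the rest. It read 6.06 and 5.86 in the RANKL libraries, 9.12 and 9.41 in ENRI, and 8.50 and 8.63 in WENRC. Both RANKL libraries were thus far below the other 4. The change was -3.31 ± 0.18 (SE; 9.93-fold lower, limma adjusted p = 0.00104) against ENRI and -2.61 ± 0.18 (6.10-fold lower, adjusted p = 0.00181) against WENRC. Against ENRI it passed the threshold in all 13 alternative settings, and leaving out any 1 of the 6 libraries gave changes of -3.46 to -3.17 with adjusted p from 5.76e-05 to 0.0431. Against WENRC the call was lost when either RANKL library was left out (largest adjusted p = 0.0543).

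Ifnlr1 (NM_174851) lies at chr4:135242372-135264095 of mm9 on the plus strand. The authors' table of regions with more H3K27me3 in RANKL held a region of 6776 bp, chr4:135239604-135246380, that covered its start, with its centre 620 bp downstream. It had 447 RANKL tags against 47.7 WENRC tags after scaling, a fold of 9.37 in the authors' deposited table. Of the 35798 regions in that table, 278 had a larger fold, 60 were longer and 64 held more RANKL tags. A smaller region centred 4242 bp upstream had 19 against 5.4 tags (fold 3.52). On the log2 values used here, Ifnlr1 thus had the largest decrease in RANKL of the 63 tested genes. The authors' deposited log2 changes for it were -4.36 against ENRI and -3.51 against WENRC. Oas1h had a larger decrease there against WENRC (-4.10). Of the 22 RANKL-higher regions within 5 kb of a start in this group, Ifnlr1 had the one with the largest fold and the most tags. The mark was measured in pooled libraries with no replicate check. The 250 bases before its first start in RefSeq (GRCm38.p6, chr4:135686207-135686456, plus strand) are shown because the mark lay over them. They held neither motif searched for in this group: GAAANNGAAA, the letters of an interferon-stimulated response element, and TTCNNNGAA, those of a gamma-activated site, each on both strands.
Ifnlr1: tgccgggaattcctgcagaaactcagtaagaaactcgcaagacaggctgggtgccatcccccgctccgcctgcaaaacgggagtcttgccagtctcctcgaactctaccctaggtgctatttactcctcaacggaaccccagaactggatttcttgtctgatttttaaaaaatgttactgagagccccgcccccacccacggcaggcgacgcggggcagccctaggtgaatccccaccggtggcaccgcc

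The chains of the type I receptor were higher in RANKL than in WENRC. Ifnar2, which binds the ligand with high affinity, read 9.22 and 9.28 in RANKL, 8.31 and 8.86 in ENRI, and 7.63 and 7.72 in WENRC, so that the cultures did not overlap. It was higher in RANKL than in WENRC by 1.58 ± 0.20 (2.98-fold, adjusted p = 0.00892) and lower in WENRC than in ENRI by 0.91 ± 0.20 (adjusted p = 0.0386). Its difference of 0.66 between RANKL and ENRI missed the threshold (adjusted p = 0.0686) and passed it with the mouse number as a replicate block (adjusted p = 0.0346). The RANKL libraries have no mouse number and were set at the middle of that term, so that here the block removes spread between mice from ENRI and WENRC and pairs no RANKL library. Ifnar1 read 9.54 and 9.64 in RANKL, 9.33 and 9.59 in ENRI and 8.91 and 8.72 in WENRC, and was higher in RANKL than in WENRC by 0.77 ± 0.15 (adjusted p = 0.0297). WENRC was the lowest culture for both chains.

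Ifngr1 had the highest level of the 5 receptor genes per kb of gene, with log2 values of 7.10 in RANKL, 7.54 in ENRI and 6.57 in WENRC. Ifnlr1 was the lowest in RANKL on that scale, at 1.52, where it had 4.83 in ENRI and 4.12 in WENRC. Over the whole gene, Ifngr1 read 11.28 and 11.31 in RANKL, 11.66 and 11.82 in ENRI, and 10.66 and 10.88 in WENRC. Its partner Ifngr2 read 10.08 and 10.21, 10.38 and 10.98, and 9.49 and 9.27 in the same order. Both were lower in WENRC than in ENRI, Ifngr1 by 0.97 ± 0.15 (adjusted p = 0.0159) and Ifngr2 by 1.30 ± 0.22 (adjusted p = 0.0200). RANKL lay between the other cultures without passing the limma test. The authors' test called 4 of the 5 receptor genes higher in RANKL than in WENRC, Ifngr1 and Ifngr2 among them, and 1 lower. Against ENRI it called 0 higher and 1 lower. With the mouse block Ifngr1 did pass, lower than in ENRI (adjusted p = 0.0451) and higher than in WENRC (adjusted p = 0.0406). All 5 receptor genes were lower in WENRC than in ENRI in both mice, Ifnlr1 by 0.62 in mouse 1 and 0.78 in mouse 2 (adjusted p = 0.0496). The calls of Ifnar1, Ifnar2 and Ifnlr1 in this comparison were lost when the libraries were recentred on their upper quartiles, and those of Ifnar1 and Ifnlr1 also in the authors' own test. All 5 calls, those of Ifngr1 and Ifngr2 included, were lost with only the 4 ENRI and WENRC libraries in the fit. In that fit 0 of all genes passed, so the calls rest on spread shared with the RANKL libraries.

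**Figure D2:**
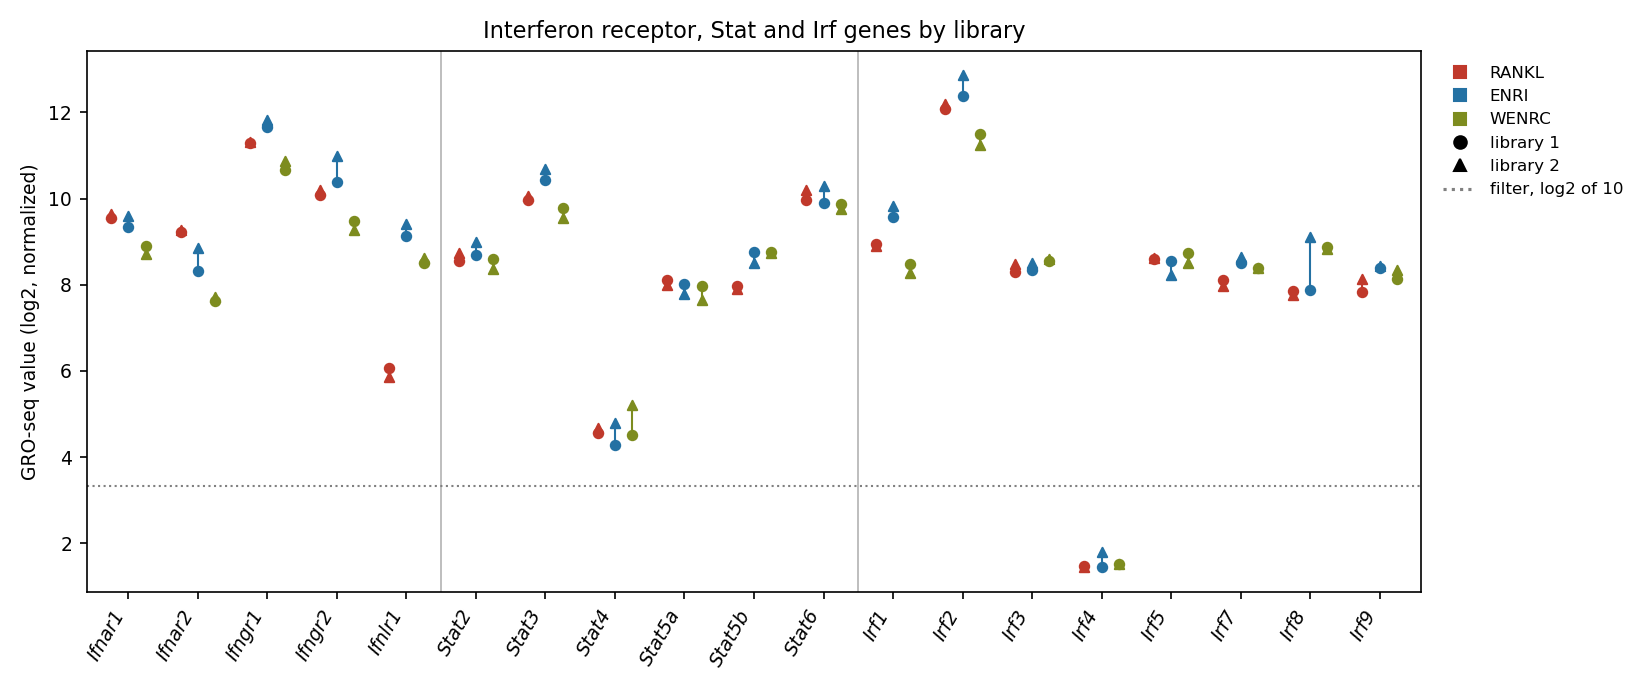
GRO-seq value (log2, normalized by the authors) of receptor, Stat and Irf genes in each of the 6 libraries; colours mark the culture, circles and triangles libraries 1 and 2, and the dotted line the filter at log2 of 10. Ifnlr1 in RANKL (6.06 and 5.86) lies well below its ENRI and WENRC values, and Irf8 shows the widest gap between ENRI libraries (7.88 and 9.10).

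Among the Stat genes, Stat5b was lower in RANKL than in either other culture, and Stat3 was lower in WENRC than in ENRI. Stat5b, a factor downstream of growth hormone and several cytokines, read 7.96 and 7.89 in RANKL, 8.77 and 8.51 in ENRI and 8.76 and 8.74 in WENRC. The RANKL libraries were below all others, by 0.71 ± 0.15 against ENRI (adjusted p = 0.0252) and 0.82 ± 0.15 against WENRC (adjusted p = 0.0231). Its neighbour and close paralog Stat5a passed in neither comparison, with values of 8.10 and 7.99, 8.02 and 7.78, and 7.97 and 7.65. Against ENRI, Stat5b passed in 7 of the 13 alternatives, and the authors' deposited table did not call it (adjusted p = 0.0625).

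Stat3, which serves the interleukin-6 and interleukin-22 receptors, read 9.96 and 10.07 in RANKL, 10.44 and 10.69 in ENRI and 9.78 and 9.55 in WENRC. WENRC was lower than ENRI by 0.90 ± 0.16 (adjusted p = 0.0210). Stat2, a factor of the type I and III response, lay between 8.37 and 9.0 in the 6 libraries, and Stat6, which answers interleukin-4 and interleukin-13, between 9.76 and 10.30; neither passed in any comparison. Stat6 overlaps Nab2, from whose reads it may not be separable. Stat4, which answers interleukin-12 in lymphocytes, read 4.28 to 5.22 and did not pass either.

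Of the Irf genes, Irf1 and Irf2 were lower in WENRC than in ENRI, and Irf1 and Irf7 were lower in RANKL than in ENRI. Irf4, a lymphocyte factor, read 1.44 to 1.79 and was not tested. Irf1, which interferon gamma induces, read 8.94 and 8.89 in RANKL, 9.57 and 9.82 in ENRI and 8.48 and 8.27 in WENRC. The cultures did not overlap. It was lower than in ENRI by 0.78 ± 0.16 in RANKL (adjusted p = 0.0217) and by 1.32 ± 0.16 in WENRC (adjusted p = 0.0103). Irf2, which can compete with Irf1 for the same sites, read 12.09 and 12.19 in RANKL, 12.37 and 12.86 in ENRI, and 11.51 and 11.24 in WENRC. WENRC was lower than ENRI by 1.23 ± 0.21 (adjusted p = 0.0206), and RANKL differed from neither past the limma threshold. In the authors' test, 3 Irf genes were higher and 1 lower in RANKL than in WENRC.

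Irf7, which amplifies the production of type I interferon, read 8.11 and 7.96 in RANKL, 8.50 and 8.64 in ENRI and 8.39 and 8.38 in WENRC. It was lower in RANKL than in ENRI by 0.54 ± 0.15, close to the threshold (adjusted p = 0.0483), and it passed in 2 of the 13 alternatives, not in the authors' own test (adjusted p = 0.184). Per kb of gene Irf7 had the highest level of the family in each culture, with log2 values of 6.34, 6.88 and 6.68. Irf3, its partner downstream of nucleic acid sensors, lay at 8.29 to 8.59 in all libraries. Irf9, the DNA-binding subunit of the type I and III response factor, read 7.84 to 8.44, and Irf5, which overlaps Tnpo3, 8.23 to 8.74; none of these 3 passed a test. Irf8, a factor of myeloid cells, read 7.86 and 7.77 in RANKL and 8.87 and 8.83 in WENRC. Its ENRI libraries, at 7.88 and 9.10, spanned this whole gap, and its difference of -1.03 from WENRC had an adjusted p of 0.133. The Irf2bp genes lay at 6.36 to 11.08, and none of the 3 passed in any comparison (at an unadjusted p under 0.05, 1 between RANKL and ENRI and 1 in each direction between WENRC and ENRI; 0 in the authors' test).

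The promoter of Irf1 is shown as that of a Stat target among the factors that moved. Its window before the first RefSeq start (GRCm38.p6 chr11:53769764-53770013, plus strand) held 1 gamma-activated site, in capitals, starting at position -90 from the transcription start. The same letters were present in 7.02% of the 32851 windows of this length in the table. A further Irf1 window, before another RefSeq start (GRCm38.p6 chr11:53770223-53770472, plus strand), held neither motif. The window of Irf2, which also moved, held 1 gamma-activated site at position -224 and 1 response element at -241.
Irf1: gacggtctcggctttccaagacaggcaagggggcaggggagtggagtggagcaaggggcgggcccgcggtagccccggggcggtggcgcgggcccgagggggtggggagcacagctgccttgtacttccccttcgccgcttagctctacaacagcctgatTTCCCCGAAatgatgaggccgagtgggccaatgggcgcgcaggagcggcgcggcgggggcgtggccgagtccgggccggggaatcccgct

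The Gbp genes encode large GTPases that attack the vacuoles of intracellular microbes. On the log2 values used here they held the 3 largest rises in RANKL among the 63 tested genes, against either culture. The authors' deposited log2 changes against WENRC were 7.30 for Gbp8, 7.08 for Gbp4 and 5.81 for Gbp9. Against ENRI they were 2.95, 3.78 and 4.12 in that order, with Ifitm3 at 4.06, Gbp6 at 3.61 and Oas1f at 3.23. Of 11 Gbp genes, 7 were tested. The same 4, Gbp4, Gbp6, Gbp8 and Gbp9, were higher in RANKL than in ENRI and than in WENRC, and the median of the 7 was 1.44 and 1.46. Gbp8 read 8.91 and 9.14 in RANKL, 7.21 and 5.35 in ENRI and 3.67 and 4.58 in WENRC. Both RANKL libraries were above the rest and the ENRI libraries stood well apart from each other. Its change was 4.90 ± 0.62 against WENRC (29.9-fold, adjusted p = 0.00846) and 2.75 ± 0.62 against ENRI (6.72-fold, adjusted p = 0.0300); leaving out 1 ENRI library gave 1.82 or 3.68, and the call against ENRI was lost without either WENRC library, which share in the estimate of spread. Gbp9 read 7.80 and 7.84 in RANKL, 5.24 and 4.18 in ENRI and 3.25 and 4.52 in WENRC, a change of 3.11 ± 0.51 against ENRI (8.64-fold, adjusted p = 0.0127) and 3.93 ± 0.51 against WENRC (15.3-fold, adjusted p = 0.00879). The latter was 3.29 without WENRC 1, when it did not pass, and 4.57 without WENRC 2.

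Gbp4 read 7.24 and 7.40 in RANKL, 4.67 and 4.81 in ENRI and 3.31 and 4.04 in WENRC. It was higher in RANKL by 2.58 ± 0.28 (5.98-fold, adjusted p = 0.00420) and 3.64 ± 0.28 (12.5-fold, adjusted p = 0.00218), and lower in WENRC than in ENRI with the mouse block (adjusted p = 0.0246) but not without it (0.0553). Gbp6 read 5.25 and 5.32 in RANKL and 3.71 to 3.94 in the other 4 libraries, a change of 1.44 ± 0.18 (adjusted p = 0.00608) and 1.46 ± 0.18 (adjusted p = 0.00797). Gbp10 at 4.53 and 4.83 in RANKL and 3.45 to 4.53 elsewhere, Gbp11 at 2.93 to 3.58 and Gbp7 at 3.81 to 4.06 did not pass by limma. The authors' test called 5 Gbp genes higher in RANKL than in WENRC, where limma called 4. The 4 risen genes lie together with Gbp10 and Gbp11 at chr5:105443172-105775495 (mm9). Gbp2, Gbp2b, Gbp3 and Gbp5, which form the other mouse cluster with Gbp7 at chr3:142159898-142300972, read 0.23 to 2.64 and were not tested. These paralogs are alike in sequence, and how the authors' counting split shared reads among them is not given in the sources used here.

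**Figure D3:**
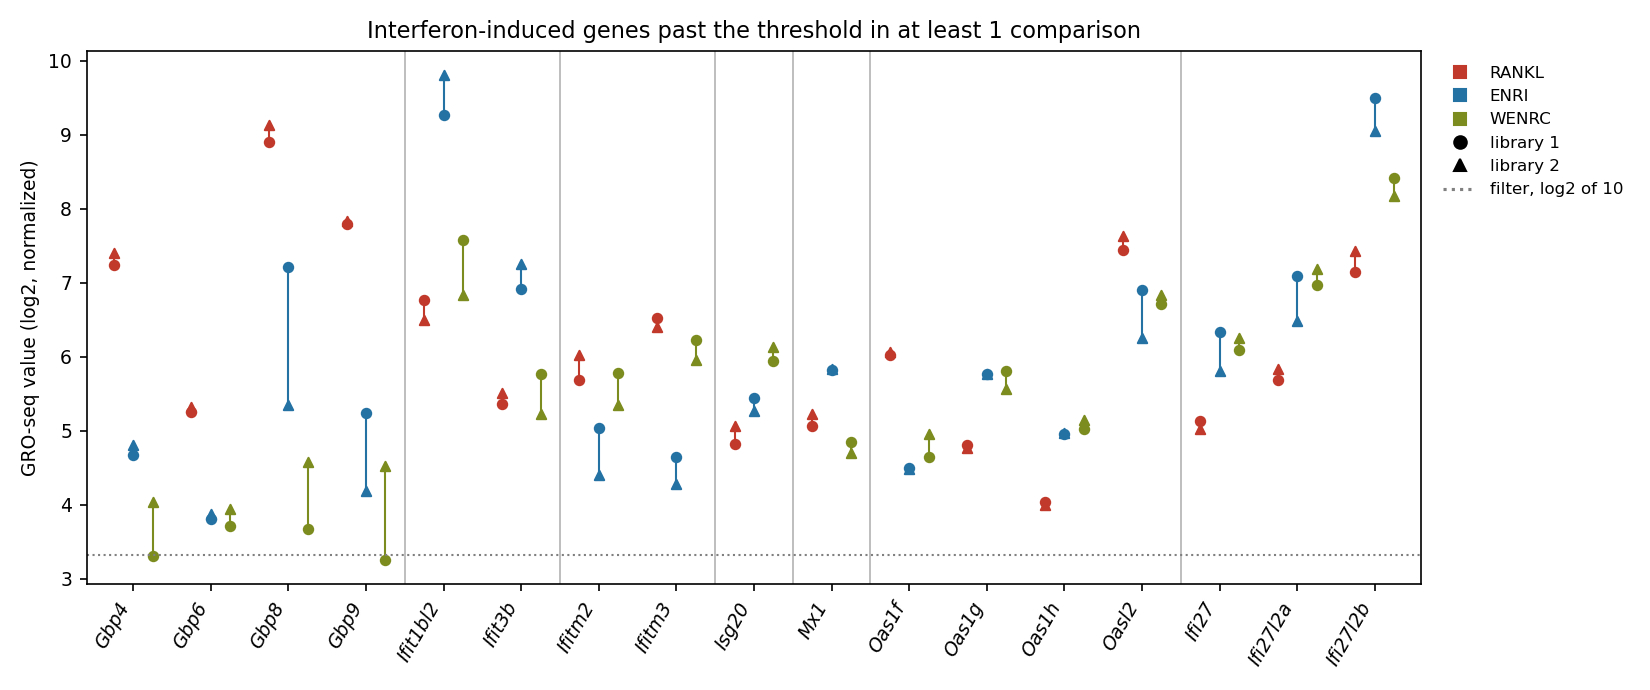
GRO-seq value (log2, normalized by the authors) in each of the 6 libraries for the 17 interferon-induced effector genes past the threshold in at least 1 comparison; colours mark the culture, and circles and triangles libraries 1 and 2. The 4 Gbp genes are highest in RANKL, Ifit1bl2 and Ifit3b are highest in ENRI, and the 3 Ifi27 genes are lowest in RANKL.

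The 6 Ifit genes, whose products bind foreign RNA lacking the host's cap modifications, were all tested. ENRI was the high culture for 2 of them. Ifit1bl2 read 6.77 and 6.50 in RANKL, 9.27 and 9.81 in ENRI and 7.58 and 6.84 in WENRC. It was lower than in ENRI by 2.90 ± 0.31 in RANKL (7.48-fold, adjusted p = 0.00414) and by 2.33 ± 0.31 in WENRC (5.03-fold, adjusted p = 0.0127). Ifit3b read 5.36 and 5.51, 6.92 and 7.25, and 5.77 and 5.23 in the same order. It was lower than in ENRI by 1.65 ± 0.25 in RANKL (adjusted p = 0.0108) and 1.59 ± 0.25 in WENRC (adjusted p = 0.0173). Its near copy Ifit3 had -0.76 (adjusted p = 0.0854) and -0.80 (0.0860) in these comparisons. The other 3 did not pass by limma: Ifit1 at 5.70 to 6.65, Ifit1bl1 at 6.0 to 7.85 and Ifit2 at 4.19 to 5.69. Each had its ENRI libraries farther apart than its RANKL libraries. For RANKL against WENRC, the authors' test called 2 of the 6 Ifit genes higher and 0 lower. Limma called 0 there, with 2 higher at an unadjusted p under 0.05.

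The Ifit genes lie side by side at chr19:34625184-34724499 (mm9). Ifit1bl2 and Ifit1 point away from each other, with listed starts 146 bp apart, and yet 1 was 7.48-fold lower in RANKL than in ENRI while the other differed by 0.34 (adjusted p = 0.398). Ifit1bl2 has a further RefSeq start inside the gene, whose window (GRCm38.p6 chr19:34629812-34630061, minus strand) held neither motif. The stretch of 145 bases between its outer RefSeq start and that of Ifit1 (GRCm38.p6 chr19:34640744-34640888, plus strand) is shown because both genes share it. It held 2 interferon-stimulated response elements, in capitals, here on the minus strand. The window before Ifit3b (chr19:34607707-34607956, plus strand), shown as that of the other Ifit gene that moved, also held 2, starting at positions -188 and -154.
Ifit1bl2 to Ifit1: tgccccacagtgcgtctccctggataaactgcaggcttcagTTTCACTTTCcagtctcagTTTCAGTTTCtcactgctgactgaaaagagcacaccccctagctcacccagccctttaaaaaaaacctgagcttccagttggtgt
Ifit3b: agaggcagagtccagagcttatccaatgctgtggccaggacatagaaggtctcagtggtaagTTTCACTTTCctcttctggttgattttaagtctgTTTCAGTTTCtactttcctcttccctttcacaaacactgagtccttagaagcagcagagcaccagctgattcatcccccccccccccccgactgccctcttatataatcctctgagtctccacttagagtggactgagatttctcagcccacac

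The response element letters were unevenly spread over the families. Of the 84 genes, 66 had a promoter in the RefSeq table; Gbp4, Gbp6, Gbp8, Gbp9, Mx1 and the Ifi27 genes were among those without one. The letters GAAANNGAAA stood in 27 of the 81 windows of these genes (33.3%), against 2.98% of all windows, and TTCNNNGAA in 12 (14.8%), against 7.02%. By family, the first motif was found in 5 of 5 Gbp, 5 of 6 Ifit, 7 of 9 Ifi202 to Ifi214, 4 of 8 Oas, 2 of 6 Stat, 1 of 3 Isg, 1 of 8 Irf and 1 of 7 Ifitm genes, and in 0 of 5 receptor, 0 of 6 other Ifi and 0 of 3 Irf2bp genes. The windows of genes that moved did not all hold it: it was in 3 of 8 matched genes lower and 1 of 4 higher in RANKL than in ENRI. A match is a match of letters and does not show a bound site.

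Of 7 Ifitm genes, membrane proteins that hinder the entry of viruses, 4 were tested and 2 were higher in RANKL than in ENRI. Ifitm3 read 6.53 and 6.40 in RANKL, 4.64 and 4.28 in ENRI and 6.23 and 5.95 in WENRC. ENRI was the low culture here, by 2.0 ± 0.22 against RANKL (4.01-fold, adjusted p = 0.00435) and 1.63 ± 0.22 against WENRC (3.09-fold, adjusted p = 0.0128), which made Ifitm3 the single gene of the group higher in WENRC than in ENRI. Ifitm2 had the same order with 5.69 and 6.02, 5.04 and 4.40, and 5.78 and 5.35. Its rise over ENRI of 1.13 ± 0.30 (adjusted p = 0.0444) passed in 4 of the 13 alternatives and was not called in the authors' test (adjusted p = 0.0573). With the mouse block it was also higher in WENRC than in ENRI (adjusted p = 0.0360). Ifitm10 at 4.49 to 5.02 and Ifitm5, a gene of bone cells, at 4.94 to 5.59 did not pass, and Ifitm1, Ifitm6 and Ifitm7 read 3.01 or less.

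Isg20, an exonuclease that degrades viral RNA, was lowest in RANKL at 4.82 and 5.06, with 5.44 and 5.27 in ENRI and 5.94 and 6.13 in WENRC. It was lower than in WENRC by 1.09 ± 0.20 (2.13-fold, adjusted p = 0.0232) and not past the threshold against ENRI (-0.41, adjusted p = 0.195). Isg15, the ubiquitin-like modifier that is among the strongest interferon-induced genes, was near the filter at 2.97 to 3.59 in every library. Isg20l2 lay at 8.18 to 8.46. Mx1, a GTPase active against influenza virus, read 5.06 and 5.22 in RANKL, 5.82 and 5.84 in ENRI and 4.85 and 4.70 in WENRC. ENRI was above the other 4 libraries. Mx1 was lower in WENRC by 1.06 ± 0.18 (adjusted p = 0.0206) and in RANKL by 0.69 ± 0.18 (adjusted p = 0.0458), the latter in 4 of the 13 alternatives and not in the authors' test (adjusted p = 0.138). Mx2 lay at 7.42 to 7.91 and did not pass.

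The Oas genes, whose products make the oligoadenylates that switch on the ribonuclease RNase L, moved in both directions. Of 12 genes, 10 were tested. Oas1f was higher in RANKL, with 6.03 and 6.06 against 4.49 and 4.48 in ENRI and 4.64 and 4.96 in WENRC. The change was 1.56 ± 0.20 (2.94-fold, adjusted p = 0.00610) and 1.25 ± 0.20 (2.37-fold, adjusted p = 0.0149). Its neighbours Oas1h and Oas1g were lower. Oas1h read 4.04 and 4.0 in RANKL, 4.96 and 4.97 in ENRI and 5.02 and 5.15 in WENRC, a change of -0.94 ± 0.17 (adjusted p = 0.0172) and -1.06 ± 0.17 (adjusted p = 0.0166). Oas1g read 4.81 and 4.77, 5.77 and 5.76, and 5.81 and 5.57, a change of -0.97 ± 0.19 (adjusted p = 0.0193) and -0.90 ± 0.19 (adjusted p = 0.0327; lost after quantile normalization). In all 3 genes the RANKL pair lay outside the range of the other 4 libraries. The Oas1 genes, like the Ifit genes above, are close paralogs, so that shared reads make their separate values uncertain.

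These genes lie next to each other in the Oas cluster at chr5:121180342-121371656 (mm9), Oas1f at chr5:121297376-121307995, Oas1h at chr5:121311431-121323514 and Oas1g at chr5:121326151-121337622. The RefSeq windows of Oas1g, which fell, and Oas1f, which rose, are shown as those of neighbours that moved in opposite directions. That of Oas1g (GRCm38.p6 chr5:120887614-120887863, minus strand) ended in 2 overlapping response elements, in capitals, starting at positions -18 and -12, and that of Oas1f (chr5:120847117-120847366, plus strand) held neither motif. The letters did not follow the direction, since the window of Oas1h, which fell, held neither motif as well.
Oas1g: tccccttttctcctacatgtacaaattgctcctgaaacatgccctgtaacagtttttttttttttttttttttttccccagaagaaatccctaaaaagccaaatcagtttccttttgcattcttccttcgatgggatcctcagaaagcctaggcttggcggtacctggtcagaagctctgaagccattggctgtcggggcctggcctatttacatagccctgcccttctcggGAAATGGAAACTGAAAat
Oas1f: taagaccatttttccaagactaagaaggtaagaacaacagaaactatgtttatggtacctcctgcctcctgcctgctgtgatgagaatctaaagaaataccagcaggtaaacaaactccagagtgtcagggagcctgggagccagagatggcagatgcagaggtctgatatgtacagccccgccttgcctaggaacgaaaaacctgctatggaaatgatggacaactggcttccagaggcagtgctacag

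Oasl2, outside that cluster, read 7.45 and 7.63 in RANKL, 6.90 and 6.25 in ENRI and 6.72 and 6.83 in WENRC. It was higher than in ENRI by 0.97 ± 0.25 (adjusted p = 0.0448), which held in 6 of the 13 alternatives and which the authors' test did not call (adjusted p = 0.0662). The other 6 tested Oas genes passed in no comparison; Oasl1 read 8.86 to 9.34, and Oas1a (-1.02, adjusted p = 0.0918) and Oas1b (-0.88, 0.0782) had the largest of their differences from WENRC. In the authors' test, 2 Oas genes were higher and 4 lower in RANKL than in WENRC, where limma called 1 and 2. Oas1d and Oas1e read 0.64 to 2.04 and were not tested.

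Of the other Ifi genes, 3 were lower in RANKL than in ENRI and than in WENRC, and all 3 belong to the Ifi27 group of small membrane proteins. Ifi27l2b read 7.14 and 7.43 in RANKL, 9.50 and 9.05 in ENRI and 8.42 and 8.18 in WENRC. The cultures did not overlap, and the change was -1.99 ± 0.21 (3.97-fold lower, adjusted p = 0.00420) against ENRI and -1.01 ± 0.21 (adjusted p = 0.0347) against WENRC. WENRC was also lower than ENRI by 0.98 ± 0.21 (adjusted p = 0.0361). Ifi27 read 5.13 and 5.02 in RANKL and 5.81 to 6.33 elsewhere, with a change of -0.99 ± 0.23 (adjusted p = 0.0336) and -1.09 ± 0.23 (adjusted p = 0.0367). Ifi27l2a read 5.68 and 5.83 in RANKL and 6.49 to 7.18 elsewhere, with a change of -1.04 ± 0.25 (adjusted p = 0.0360) and -1.32 ± 0.25 (adjusted p = 0.0256). Ifi27 (chr12:104672399-104678455, plus strand) lies within Ifi27l2a (chr12:104672083-104681890, minus strand), so that without strand their reads cannot be told apart and the 2 values may be 1 measurement.

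Ifih1, the sensor MDA5 for double-stranded RNA, lay at 8.12 to 8.85, Ifi35 at 8.47 to 9.08 and Ifi30, a lysosomal reductase used in antigen processing, at 7.82 to 9.24; none passed. Ifi44 read 3.63 to 4.17 and Ifi47, a GTPase that overlaps Olfr56, 4.96 to 5.90. The 10 genes of the Ifi202 to Ifi214 cluster on chromosome 1, which encode DNA-binding PYHIN proteins, read -0.04 to 2.74 in every library, and none passed the filter. The 21 untested genes as a whole read -1.98 to 3.01, and none was at 0 in all libraries.

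H3K27me3 was compared in the authors' 2 tables of regions, one for more of the mark in RANKL (RANKL-higher) and one for more in WENRC (WENRC-higher), which hold no replicate values. A RANKL-higher region lay within 5 kb of the start of 14 of the 84 genes (16.7%), where 19.1% of all genes had one. A WENRC-higher region lay that close to 2 of the 84 (2.38%), against 5.44% of all genes. The 14 were Ifnlr1, Isg20, Stat5a, Stat5b, Irf1, Irf5, Irf8, Irf2bpl, Gbp3, Ifitm7, Ifitm10, Ifi203, Ifi205 and Ifi209. Both shares were near or below those of genes in general. Of the 9 that were tested for transcription, Ifnlr1, Isg20 and Stat5b were lower in RANKL than in WENRC, beside 6.44% of all tested genes with such a region (5.2% were higher); the other 6 did not pass, Irf8 with -1.03 and Irf1 with 0.54.

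Isg20 had a region of 818 bp centred 743 bp upstream of its start (chr7:86057158-86057976), with 32 against 4.5 tags, a fold of 7.11 in the authors' deposited table. Stat5b had one of 7268 bp (chr11:100710060-100717328) with 400 against 150.3 tags, a fold of 2.66. That region covered the Stat5b start and reached toward that of Stat5a, which lies 8766 bp away on the other strand and had 2 regions of its own upstream (fold 2.91 and 2.48). Irf1 had a region of 23 against 9 tags centred 670 bp upstream (fold 2.55), and Irf8 one of 21 against 5.4 tags 665 bp downstream (fold 3.89). Irf5 had 2 near its start, with 32 against 12.6 tags (fold 2.54) and 100 against 44.1 (fold 2.27). Apart from the large regions at Ifnlr1, Stat5b and Irf5, no region within 5 kb held more than 70 RANKL tags, so that their folds rest on few tags.

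**Figure D4:**
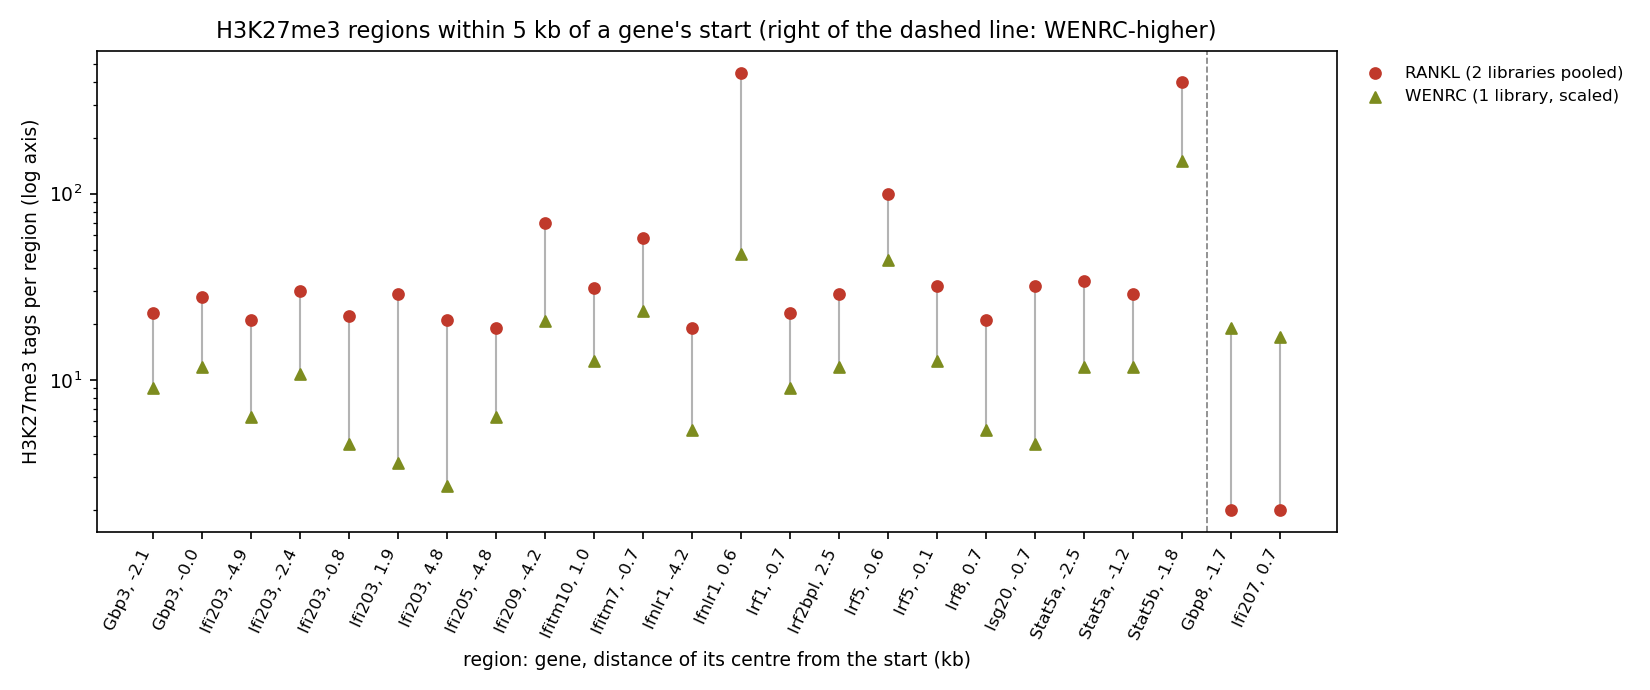
H3K27me3 tags (log axis) in pooled RANKL (circles, 2 libraries) and in WENRC (triangles, 1 library, scaled by the authors) for each of the 24 regions within 5 kb of a gene's start, named by gene and distance of the region's centre in kb. Ifnlr1 (447 against 47.7) and Stat5b (400 against 150.3) hold the most tags, and Gbp8 and Ifi207, right of the dashed line, have more in WENRC.

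Gbp8 had the opposite pattern to Ifnlr1. Its WENRC-higher region (chr5:105484039-105484539) was centred 1709 bp upstream of the start, with 18.9 scaled WENRC tags against 2 in RANKL, a fold of 9.45 in the authors' deposited table. On the log2 values used here, Gbp8 was 29.9-fold higher in RANKL than in WENRC, and the authors' deposited log2 change was 7.30. Of all tested genes with such a region, 19.4% were higher and 1.81% lower in RANKL than in WENRC. The other gene with one, Ifi207 (17.1 against 2 tags, fold 8.55, 705 bp downstream), was not tested for transcription. Gbp4, Gbp6 and Gbp9, which also rose, had no region of either table within 5 kb.

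**Figure D5:**
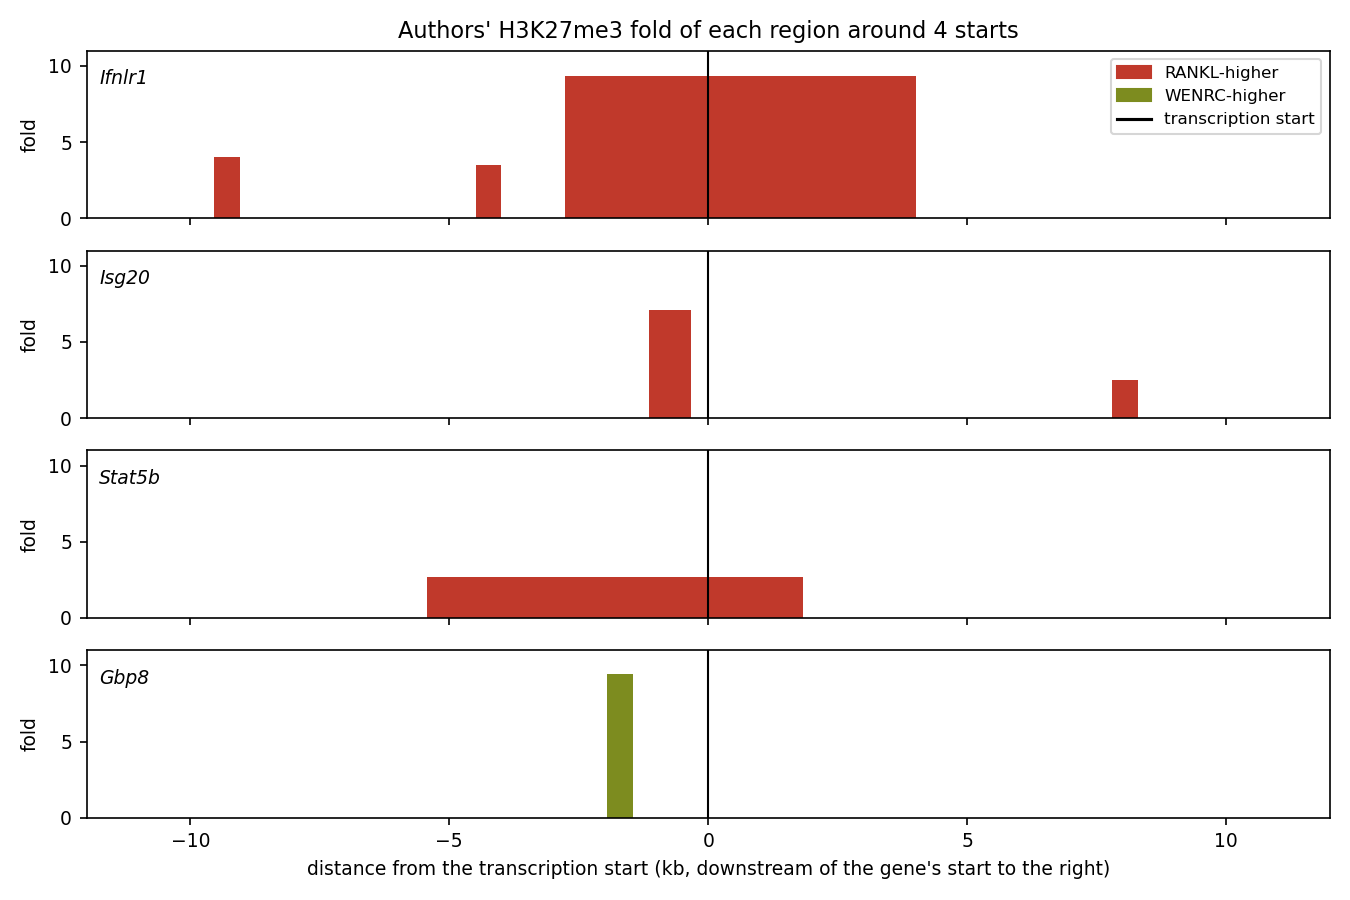
Regions that the authors' H3K27me3 tables assign to Ifnlr1, Isg20, Stat5b and Gbp8, drawn to scale in kb around the transcription start (black line, downstream to the right). The authors' fold is the height, red is higher in RANKL and green higher in WENRC. Regions assigned to other genes, such as those of Stat5a upstream of the Stat5b start, are not drawn. The region of 6776 bp over the Ifnlr1 start has a fold of 9.37, and the one upstream of Gbp8 a fold of 9.45 in the other direction.

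At any distance, 94 RANKL-higher regions were assigned by the authors to 26 of the 84 genes (fold 2.04 to 12.22, median 2.92; 33.7% of all genes had one) and 25 WENRC-higher regions to 13 (24% of all genes). Many lay in the scarcely transcribed Ifi202 to Ifi214 cluster (chr1:175451442-175961886, 510 kb), which held 28 RANKL-higher regions with 1278 against 408.6 tags over 27.2 kb, and 1 WENRC-higher region; the chromosome held 2090 and 941. The Gbp cluster on chromosome 5 (332 kb), with the risen genes, held 1 of each kind. The Gbp cluster on chromosome 3 (141 kb) held 8 and 4, the Oas cluster (191 kb) 7 and 2, and the Ifit cluster (99.3 kb) 0 and 1. Chromosome 5 held 1844 and 723, chromosome 3 held 1131 and 735, and chromosome 19 held 1057 and 313. Ifi203 alone had 5 RANKL-higher regions within 5 kb of its start, up to a fold of 8.05, at GRO-seq values of 1.56 to 1.80 in every library.

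The rest of the pathway was read from a list of 74 genes outside the symbol rule, of which 60 were tested. In RANKL 2 were higher and 11 lower than in ENRI, and 4 higher and 3 lower than in WENRC; in WENRC 1 was higher and 7 lower than in ENRI. The shares of all tested genes were 10.4% and 10.5%, 8.53% and 3.62%, and 4.85% and 9.74% in that order. Of 9 interferon genes, Ifnk, an epithelial type I interferon, was the single one tested, at 5.13 to 5.77. Ifnb1, Ifna1, Ifna2 and Ifng were listed at 0 in all 6 libraries, among 2131 such genes of the whole table. That 0 is not read here as a level above the negative values. Ifnl2 and Ifnl3, the ligands of Ifnlr1, read -1.49 to -1.28. Il10rb, the chain that pairs with Ifnlr1, read 9.20 and 9.08 in RANKL, 9.90 and 10.49 in ENRI and 9.11 and 8.80 in WENRC. It was lower than in ENRI by 1.05 ± 0.23 in RANKL (adjusted p = 0.0266) and 1.24 ± 0.23 in WENRC (adjusted p = 0.0238). Unlike Ifnlr1, Il10rb had no difference past the threshold between RANKL and WENRC (0.18, adjusted p = 0.651). Of the Janus kinases, Jak2, which serves the interferon gamma receptor, was lower in WENRC than in ENRI by 1.21 ± 0.17 (adjusted p = 0.0133) and than in RANKL by 1.15 ± 0.17 (adjusted p = 0.0127), the culture in which Ifngr1 and Ifngr2 were lowest too. Of 8 inhibitors such as Socs1 and Usp18, limma called 0 in all 3 comparisons; at an unadjusted p under 0.05, 2 were higher and 1 lower in RANKL than in ENRI, 3 were higher in RANKL than in WENRC and 1 was lower in WENRC than in ENRI, and the authors' test called 3, all higher in RANKL than in WENRC.

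Among the sensors, Nod2, which detects bacterial muramyl dipeptide, rose in RANKL to 8.72 and 8.83 from 6.31 and 6.03 in ENRI and 6.08 and 6.40 in WENRC (2.61 ± 0.20, adjusted p = 0.00215, and 2.54 ± 0.20, adjusted p = 0.00254). Aim2, a DNA sensor of the PYHIN family, was lower in RANKL at 7.20 and 7.28, with 10.22 and 8.52 in ENRI and 9.94 and 9.25 in WENRC (-2.13 ± 0.54, adjusted p = 0.0413, and -2.36 ± 0.54, adjusted p = 0.0446). Nlrp6 fell by 1.34 ± 0.27 against ENRI (adjusted p = 0.0218), and Ddx58, the sensor RIG-I, by 0.71 ± 0.13 (adjusted p = 0.0173). Of 30 tested further interferon-induced genes, 6 were lower in RANKL than in ENRI, among them the antiviral ADP-ribosyltransferases Parp12 (-1.19 ± 0.27, adjusted p = 0.0303) and Parp14 (-0.93 ± 0.15, adjusted p = 0.0117) and the GTPase Irgm1 (-0.98 ± 0.19, adjusted p = 0.0204). Tap2, a peptide transporter for antigen presentation, was the single one of them higher, by 0.88 ± 0.20 against ENRI (adjusted p = 0.0312) and 1.38 ± 0.20 against WENRC (adjusted p = 0.0127).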

How the data were processed

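GRO-seq was deposited as 1 table of 6 libraries and H3K27me3 ChIP-seq as 2 tables of regions. Per the file headers, the authors counted reads per gene with HOMER analyzeRepeats.pl on mm9 and ran getDiffExpression.pl; the values they deposited are log2 normalized values. Bowtie2 2.3.4.1, HOMER and DESeq2 are named in the submitters' processing notes. The name of the transform, the use of strand and the treatment of reads with several matches are not given in the sources used here. The log2 fold change and adjusted p-value of the authors' deposited table were used as an alternative test. In the region tables the authors deposited tag counts of the 2 pooled RANKL libraries, the WENRC signal (tags of 1 library scaled by 0.9), and the ratio of both as a fold; values of 0.5 are their floor. The regions' gene names and distances are the authors'.

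Genes with at least 2 libraries at log2 of 10 (16563 of 24505) entered limma 3.58.1 (R 4.3.3; variance trend, 3 culture means over all 6 libraries, two-sided), with Benjamini-Hochberg adjustment over all of them and a threshold of 0.05. The mouse number pairs ENRI and WENRC libraries of the same animal by the labels, and over genes their deviations from the culture means correlated (r = 0.414); a fit with it as a block, RANKL libraries at its middle, was an alternative. How deeply the GRO-seq libraries were sequenced is unknown, and the number of libraries limits the precision. Other alternatives were the filter, the scaling, the variance trend, the libraries fitted, the authors' test and leaving out each library; for H3K27me3, the distance and the fold. Region tags are reads, and no interval was given for them.

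Motifs were matched by their letters in the 250 bases before each RefSeq start (GRCm38.p6). Those coordinates differ in build from the mm9 ones and were not converted.

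Genes were named by a rule: receptor, Stat and Irf genes, others past the threshold in at least 1 comparison, and those with a region within 5 kb of the start. Further genes that missed the threshold, and values per library beyond the 6 largest changes of a comparison, were added after their values were seen. Results of some genes are not reported here. The genes, the pathway and marker lists and the tests were chosen with earlier results of these data known.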

Additional observations from a re-analysis of the deposited data

How the results depend on the processing

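Over 123 combinations of a named gene and a comparison, the alternatives gave 1338 values with the same call and direction, 239 no longer past the threshold and 63 newly past it; 36 changes that had not passed turned in sign, and no call was reversed. With only the 4 libraries of a comparison in the fit, 5 genes were higher and 7 lower for RANKL against ENRI (all genes: 5.61% and 6.01%). For RANKL against WENRC, 16 were higher and 14 lower (all genes: 18.1% and 13.2%). For WENRC against ENRI, limma called 0 either way (20 at an unadjusted p under 0.05), and 0 of all 16563 genes. In that comparison the authors' test called 1 higher and 11 lower, beside 3.3% and 9.24% of all genes. The authors' deposited test gave 16 higher and 13 lower for RANKL against WENRC, beside 16.7% and 11.1% of all genes. Between WENRC and ENRI, the replicate block by mouse number and the upper-quartile recentring each gave 2 higher. The block with only these 4 libraries, added after seeing the data, gave 0 higher and 0 lower (21 at an unadjusted p under 0.05), where 19 and 105 of all genes passed. With the block over all 6 libraries, the counts were 9 higher and 15 lower for RANKL against ENRI, 12 and 9 for RANKL against WENRC, and 2 and 14 for WENRC against ENRI, beside 14.8% and 13.9%, 11.6% and 6.14%, and 8.72% and 12.7% of all genes. Among the genes covered by the naming rule it added 6 calls and ended none. Leaving out each library in turn changed the number of genes past the threshold in every comparison, in this group and among all genes. Without a library, its lone partner was assumed to vary like the other cultures. The cause was not tested. With upper quartiles made equal, the all-gene median went from -0.01 to -0.12 for RANKL against WENRC and from -0.01 to 0.10 for WENRC against ENRI.

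A RANKL-higher H3K27me3 region was assigned to 26 of the 84 genes at any distance, to 9 within 1 kb and to 3 within 5 kb at a fold of at least 4. A WENRC-higher region was assigned to 13 at any distance and to 1 within 1 kb, and such regions overlapped the bodies of 6. At any distance, 33.7% of all genes had a RANKL-higher and 24% a WENRC-higher region. Shares of all genes are not given for the other rules, so those counts cannot be set against genes in general. With 1 pooled value a culture, tag counts near 20 limit most of these folds.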
